A study of Mus musculus with 4 samples.

Results

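The 8 genes described here encode 2 metallothioneins (Mt1 and Mt2), the metal-sensing transcription factor Mtf1 and 5 zinc transporters (Slc30a1, Slc30a5, Slc39a1, Slc39a8 and Slc39a14), out of 25555 genes named in the data. They were picked by symbol with their levels and regional differences in these libraries in view, so those values are given as a description. RNA was sequenced from stromal cells of adult C57BL/6 mouse prostate, sorted by flow cytometry as Sca-1-positive and as negative for CD24, CD49f and lineage markers that the labels do not list. There were 2 libraries of proximal ducts, which lie next to the urethra, and 2 of distal ducts, which end at the tips of the lobes. They are called proximal 2, proximal 3, distal 2 and distal 3 after the numbers in their labels. No label says whether libraries came from separate animals or pools, so the spread between libraries may be technical. The aim stated for the series was to identify signalling in this stroma. Values are FPKM, fragments per kilobase of transcript scaled to the mapped fragments of the library, summed per gene.

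Metallothioneins are small cysteine-rich proteins that bind zinc and copper and buffer the free metal in the cell. Their genes are switched on by MTF1, which binds metal response elements in promoters when zinc is high, and also by glucocorticoids and inflammatory signals. Transporters of the Slc30a family (ZnT) move zinc out of the cytosol, and those of the Slc39a family (ZIP) move it in. The prostate is known for its high zinc content, which in human tissue is a property of the secretory epithelium.

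The windows around the RefSeq starts of Mt1, Mt2 and Slc30a1 are shown because these genes are known MTF1 targets in the mouse and because Mt1 and Mt2 varied together across the libraries while Slc30a1 did not follow them. Each runs from 250 bases before to 50 bases after the RefSeq start (GRCm38.p6), on the strand of the gene, and all 3 genes lie on the plus strand. Capitals mark the core of the metal response element, TGCACNC or TGCGCNC, searched on both strands and with overlapping matches counted separately. The Mt1 window is chr8:94178839-94179138, that of Mt2 is chr8:94172368-94172667 and that of Slc30a1 is chr1:191906531-191906830.
Mt1: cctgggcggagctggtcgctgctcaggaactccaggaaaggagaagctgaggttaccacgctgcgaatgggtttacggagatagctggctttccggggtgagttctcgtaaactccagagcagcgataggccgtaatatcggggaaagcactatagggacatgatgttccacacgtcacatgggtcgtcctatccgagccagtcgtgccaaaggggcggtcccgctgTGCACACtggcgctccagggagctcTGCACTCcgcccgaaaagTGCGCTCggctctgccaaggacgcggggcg
Mt2: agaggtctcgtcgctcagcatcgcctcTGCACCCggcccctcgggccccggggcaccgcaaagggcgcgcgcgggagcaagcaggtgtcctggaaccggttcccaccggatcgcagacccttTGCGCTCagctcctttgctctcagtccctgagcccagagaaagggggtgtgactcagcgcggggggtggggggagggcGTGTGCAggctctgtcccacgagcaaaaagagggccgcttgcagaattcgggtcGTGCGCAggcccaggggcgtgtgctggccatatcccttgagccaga
Slc30a1: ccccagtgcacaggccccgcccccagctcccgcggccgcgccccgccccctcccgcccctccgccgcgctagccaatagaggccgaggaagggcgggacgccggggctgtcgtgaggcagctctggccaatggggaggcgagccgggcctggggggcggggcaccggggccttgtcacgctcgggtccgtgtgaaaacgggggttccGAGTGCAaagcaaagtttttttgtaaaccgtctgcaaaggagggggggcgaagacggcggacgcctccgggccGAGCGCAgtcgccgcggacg
The window of Mt1 held 3 cores, that of Mt2 held 4 and that of Slc30a1 held 2. Of 32851 RefSeq promoters of the same length, 25.7% held at least 1 core, 7.11% at least 2, 1.97% at least 3 and 0.517% at least 4. In Mt1 the cores began at -23, 3 and 21 relative to the start, all on the forward strand. In Mt2 they began at -223 and -128 on the forward strand and at -50 and 5 on the reverse strand. Of 7 members with a window in the table, 5 held a core, the others being Slc30a5 and, in 1 of its 2 windows, Slc39a8. Mtf1 and Slc39a1 held none in this window. Among the other zinc genes, 10 of 18 with a window held a core in at least 1 window. The positions are those of the RefSeq start, which need not be the start used in these cells.

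**Figure D1:**
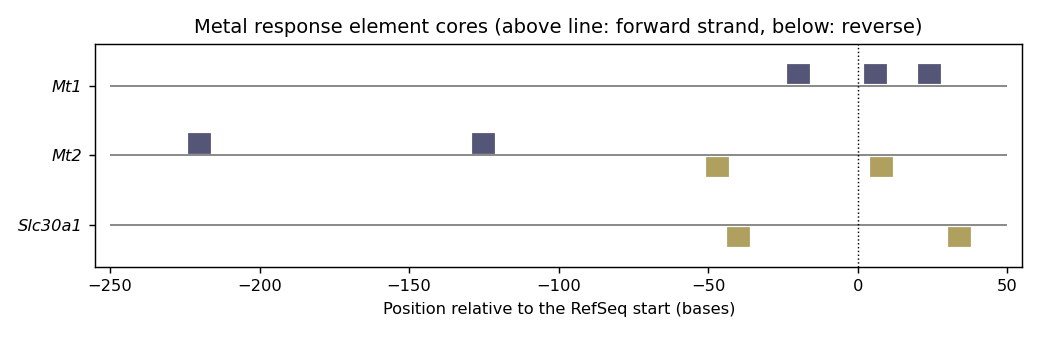
Position of metal response element cores (boxes, 7 bases each) in the windows of Mt1, Mt2 and Slc30a1, in bases from the RefSeq start (dotted line). Boxes above a line are on the forward strand and boxes below it on the reverse strand; Mt2 holds 4, Mt1 holds 3 and Slc30a1 holds 2.

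The sorted cells carried stromal markers. The 7 stromal markers, with Ly6a (Sca-1), Pdgfra and Dcn among them, summed to 5485 and 5906 FPKM in the proximal libraries and 5320 and 4600 FPKM in the distal libraries. The 8 epithelial markers summed to 37.9 and 274 FPKM in proximal 2 and proximal 3 and to 35.0 and 89.5 FPKM in distal 2 and distal 3, and 7 of the 7 tested were higher in both libraries numbered 3 than in both numbered 2. Of the 5 luminal secretory markers, 2 (Sbp and Spink1) were listed at 0 throughout, and the list, nearly all of it Pbsn, summed to 76.8 FPKM in proximal 2 and 240.4 FPKM in proximal 3, with 100.1 and 139 FPKM for distal 2 and distal 3. Endothelial markers summed to 5.31 to 6.91 FPKM and leukocyte markers to 2.6 to 4.23 FPKM, with Cd3e listed at 0. Pericyte markers summed to 13.0 and 15.0 FPKM in proximal libraries, below the 19.5 and 21.5 FPKM of the distal libraries, but this came from Cspg4 (7.25 and 7.73 FPKM in proximal, 15.1 and 17.7 FPKM in distal libraries), while Abcc9 lay above in proximal libraries (1.97 and 4.11 FPKM, against 0.539 and 1.17 FPKM). The sums of nerve markers were 1.02 and 1.10 FPKM (proximal) and 0.320 and 0.498 FPKM (distal), and those of smooth muscle markers 275 and 134 FPKM (proximal) and 312 and 188 FPKM (distal). The libraries resembled each other more by number than by region: Pearson's r of log2(FPKM + 1), taken over genes that are no replicates of each other, was 0.952 between the libraries numbered 2 and also 0.952 between those numbered 3, 0.869 between the proximal libraries and 0.911 between the distal libraries. Between 10101 (distal 3) and 11393 (proximal 2) genes reached 1 FPKM.

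Mt1 and Mt2 were among the most abundant transcripts of this stroma in every library, and their level was set apart in a single library, proximal 2. Mt1 (chromosome 8, 94179082 to 94180327, plus strand) reached 4145 FPKM in proximal 2 and 10144 FPKM in proximal 3, against 11675 FPKM in distal 2 and 10795 FPKM in distal 3. It ranked first of all named genes in proximal 3 and in both distal libraries, and at place 4 in proximal 2. Mt2 (chromosome 8, 94172664 to 94173568, plus strand), its neighbour on the chromosome, reached 2503 FPKM in proximal 2 and 6266 FPKM in proximal 3, with 6459 and 6704 FPKM for distal 2 and distal 3. Its ranks were 12 and 3 in the proximal and 2 and 2 in the distal libraries. Proximal 2 was low for both genes, while proximal 3 lay within 10% of the lower distal value. For both genes the proximal values lay below the distal ones without overlap.

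The deposited bounds of Mt1 spanned 3969 to 4321 FPKM in proximal 2 and 9721 to 10567 FPKM in proximal 3, against 11189 to 12161 FPKM in distal 2 and 10346 to 11244 FPKM in distal 3. The bounds of proximal 3 and distal 3 thus overlapped, and those of proximal 2 lay far below all others. These bounds cover the estimation error within a library, not the spread between libraries. Mt1 had a proximal mean of 7144 ± 4242 FPKM and a distal mean of 11235 ± 622 FPKM (SD, n = 2 each), a difference in log2(FPKM + 1) of -0.79 ± 0.56 (SE). Mt2 had a proximal mean of 4384 ± 2661 FPKM and a distal mean of 6581 ± 173 FPKM (SD, n = 2 each), which makes the log2 difference -0.73 ± 0.55 (SE). The regional difference was large within the libraries numbered 2 (-1.49 for Mt1 and -1.37 for Mt2) and small within those numbered 3 (-0.09 and -0.10). Without proximal 2 the log2 difference was -0.15 for Mt1 and -0.07 for Mt2, and without proximal 3 it was -1.44 and -1.39. In these bulk samples fewer cells with a transcript and less of it per cell cannot be told apart.

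**Figure D2:**
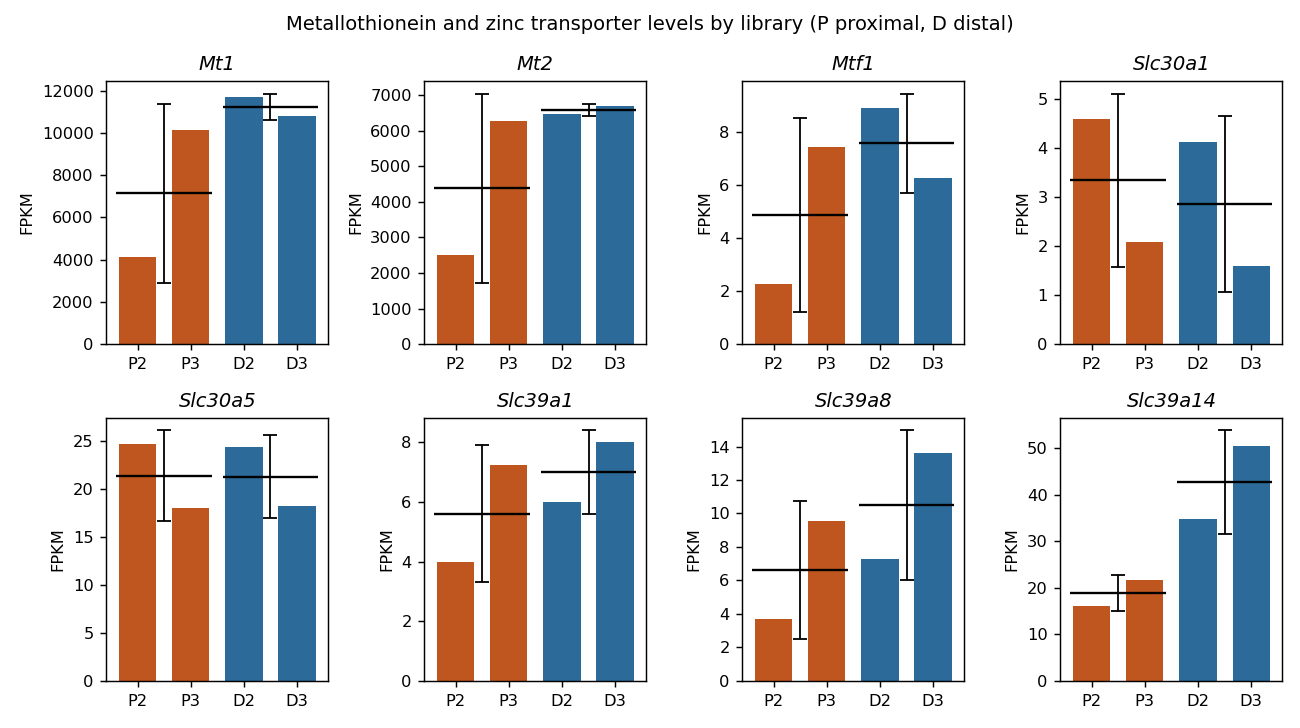
FPKM of the 8 genes in proximal 2 (P2), proximal 3 (P3), distal 2 (D2) and distal 3 (D3). Bars are single libraries, horizontal lines the mean of a region and error bars its SD (n = 2). Mt1 and Mt2 are low in proximal 2 (4145 and 2503 FPKM), and Slc39a14 is lower in both proximal libraries (16.1 and 21.7 FPKM) than in both distal ones (34.8 and 50.6 FPKM).

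Together Mt1 and Mt2 held 1.77% and 4.08% of the summed FPKM of all named genes in proximal 2 and proximal 3, and 4.55% and 4.66% in distal 2 and distal 3. The ratio of Mt1 to Mt2 was nearly constant, at 1.66 and 1.62 in the proximal and 1.81 and 1.61 in the distal libraries. Both genes were thus low together in proximal 2, by 2.45-fold (Mt1) and 2.5-fold (Mt2) against proximal 3. The sum over 8 early response and heat shock genes, known to respond to tissue handling, was highest in that library, at 22138 and 17100 FPKM in the proximal and 15889 and 8624 FPKM in the distal libraries. Of the 8, Ubb and Atf3 were highest in proximal 3 and the other 6 in proximal 2, and their part in the metallothionein levels was not tested.

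**Figure D3:**
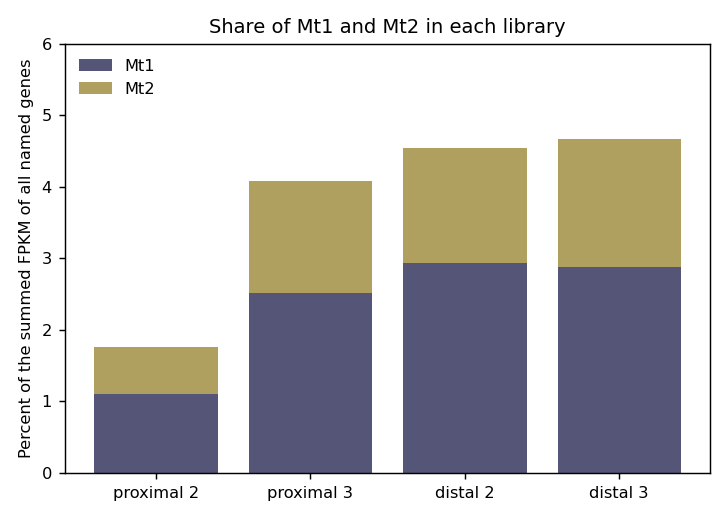
Share of Mt1 and Mt2 in the summed FPKM of all named genes, in percent, for each of the 4 libraries (stacked bars). The stacked total is 1.77% in proximal 2 and lies between 4.08% and 4.66% in the other 3 libraries.

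The other metallothioneins of the cluster on chromosome 8 were also measured, at far lower levels. Mt3, best known from brain, stood at 31.8 and 68.3 FPKM in the proximal and 64.9 and 54.5 FPKM in the distal libraries, again lowest in proximal 2. This was 0.768% and 0.674% of the Mt1 level in proximal and 0.556% and 0.505% in distal libraries. Mt4, best known from stratified squamous epithelium, stood at 3.43 and 4.26 FPKM in the proximal and 6.38 and 6.48 FPKM in the distal libraries, without overlap. The annotated transcripts of Mt1 and Mt2 were identical at 345 of 492 aligned bases (70.1%), with no shared run longer than 20 bases. Mt1 and Mt3 shared 315 of 508 aligned bases (62.0%) and a run of 27 bases, and no stretch of 50 bases occurred in both. Mt4 shared no run longer than 11 bases with Mt1 and none longer than 18 bases with Mt2. How fragments from similar stretches were divided among the copies is stated in no source used here, so the low Mt3 and Mt4 levels are uncertain beside Mt1.

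Mtf1, the transcription factor that senses zinc and drives metallothionein genes, was expressed at a low level. Its summed value was 2.27 and 7.44 FPKM in the proximal and 8.89 and 6.25 FPKM in the distal libraries (chromosome 4, 124802104 to 124849800, plus strand), a log2 difference of -0.69 ± 0.59 (SE), with overlapping regions. It was -0.01 without proximal 2 and -1.37 without proximal 3. The spread came from a short transcript of 814 bases at the 5′ end of the gene, listed at 0 and 4.77 FPKM in the proximal and at 6.28 and 3.91 FPKM in the distal libraries. The remaining 2 transcripts, of 7631 and 7690 bases, summed to 2.27 and 2.66 FPKM in proximal and to 2.61 and 2.34 FPKM in distal libraries. The deposited upper bound of the short transcript in proximal 2 was 0.116 FPKM. The 3′ end of Mtf1 overlaps 1110065P20Rik on the other strand, as Mt2 overlaps Gm45774 and the start of Slc30a1 overlaps 1700034H15Rik, and without strand the reads of each pair cannot be told apart. On the long transcripts the regions overlapped and no library stood apart, proximal 2 included.

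Of the 2 exporters, Slc30a1 (ZnT1) removes zinc across the plasma membrane and is switched on by zinc through MTF1 in the mouse, as the metallothioneins are. It reached 4.59 FPKM in proximal 2 and 2.09 FPKM in proximal 3, against 4.12 FPKM in distal 2 and 1.59 FPKM in distal 3 (chromosome 1, 191906767 to 191913247, plus strand). It was higher in both libraries numbered 2 than in both numbered 3, as were 50.3% of all tested genes, and so was not low in proximal 2. Its level was low in every library, and shared control with Mt1 and Mt2 was not tested. The log2 difference between regions was 0.19 ± 0.56 (SE), the proximal mean being 3.34 ± 1.77 FPKM and the distal mean 2.86 ± 1.79 FPKM (SD, n = 2 each). Slc30a5 (ZnT5), which loads zinc into the secretory pathway together with Slc30a6, was the steadiest member. It stood at 24.7 and 18.0 FPKM in the proximal and 24.4 and 18.3 FPKM in the distal libraries (chromosome 13, 100802648 to 100833427, minus strand). Its highest value was 1.37 times its lowest, against 2.0 to 3.91 times for the other 7 genes. Slc30a6 stood at 9.30 and 6.42 FPKM in the proximal and 9.48 and 6.64 FPKM in the distal libraries.

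Among the importers, Slc39a14 (ZIP14), which carries zinc, iron and manganese and is induced by interleukin 6 in mouse liver, was lower in both proximal libraries. It reached 16.1 FPKM in proximal 2 and 21.7 FPKM in proximal 3, against 34.8 FPKM in distal 2 and 50.6 FPKM in distal 3 (chromosome 14, 70303469 to 70351425, minus strand). The regions did not overlap, and neither did the deposited bounds, whose highest proximal limit was 22.9 FPKM and lowest distal limit 33.0 FPKM. Its proximal mean was 18.9 ± 3.95 FPKM and its distal mean 42.7 ± 11.2 FPKM (SD, n = 2 each), which makes the log2 difference -1.12 ± 0.38 (SE). The libraries numbered 2 gave -1.06 and those numbered 3 gave -1.18. Dropping single libraries moved it between -1.39 (without distal 2) and -0.86 (without distal 3). Of its 5 deposited transcripts 1 carried the whole value, and the other 4, one of the same span and length included, were listed at 0. The gate marker Ly6a (687 and 738 FPKM in proximal, 1016 and 868 FPKM in distal libraries) was also lower in both proximal libraries, and its part in the Slc39a14 difference was not tested.

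Slc39a8 (ZIP8), the closest relative of ZIP14, stood at 3.71 and 9.53 FPKM in the proximal and 7.29 and 13.6 FPKM in the distal libraries (chromosome 3, 135825279 to 135888572, plus strand). Within each number the proximal value was the lower one (-0.81 and -0.47 on the log2 scale), but the regions overlapped, and both libraries numbered 3 lay above both numbered 2. The log2 difference was -0.64 ± 0.58 (SE), and it was -0.06 without proximal 2, -1.22 without proximal 3 and -0.23 without distal 3. Its value was divided among 4 of 6 deposited transcripts, the leading one of 3383 bases standing at 2.11 and 4.95 FPKM in proximal and 3.77 and 5.45 FPKM in distal libraries. Slc39a1 (ZIP1), a plasma membrane importer studied for zinc uptake by human prostate epithelium, stood at 4.0 and 7.22 FPKM in the proximal and 6.00 and 7.99 FPKM in the distal libraries (chromosome 3, 90248172 to 90253612, plus strand). Its regions overlapped as well, with a log2 difference of -0.31 ± 0.46 (SE). The epithelial marker sum, like Slc39a8 and Slc39a1, was higher in both libraries numbered 3, and its part in these levels was not tested. The sort was meant to remove epithelium by CD24 and CD49f, whose genes stood at 8.06 and 54.6 FPKM in proximal and 9.64 and 19.1 FPKM in distal libraries (Cd24a) and at 0.501 to 1.34 FPKM over the 4 libraries (Itga6).

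Of the 8 genes, 3 (Mt1, Mt2 and Slc39a14) had both proximal values below both distal values and 0 had them above, while 5 overlapped. Among all 11213 genes tested, 8.67% lay below without overlap and 12.9% above. Because the members were picked with these differences in view, nothing is read from that contrast. The median log2 difference of the 8 genes was -0.67, against 0.09 over all tested genes. It was -0.11 without proximal 2 and -1.27 without proximal 3, so it rested on the low values of proximal 2 to a large extent. In the order of all tested genes from the most distal to the most proximal difference, Slc39a14 took place 124, Mt1 place 284, Mt2 place 341, Mtf1 place 388, Slc39a8 place 444, Slc39a1 place 1445, Slc30a5 place 4447 and Slc30a1 place 6885. The linear model of limma called 0 of these genes and 0 of all tested genes (0% in either direction, Benjamini-Hochberg adjusted p under 0.05), and 354 genes (3.16%) had an unadjusted p under 0.05, of which 253 (2.26%) were higher and 101 (0.901%) lower in proximal stroma, Slc39a14 the one among the 8. With 2 libraries per region, the smallest two-sided p of an exact permutation test is 0.333.

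**Figure D4:**
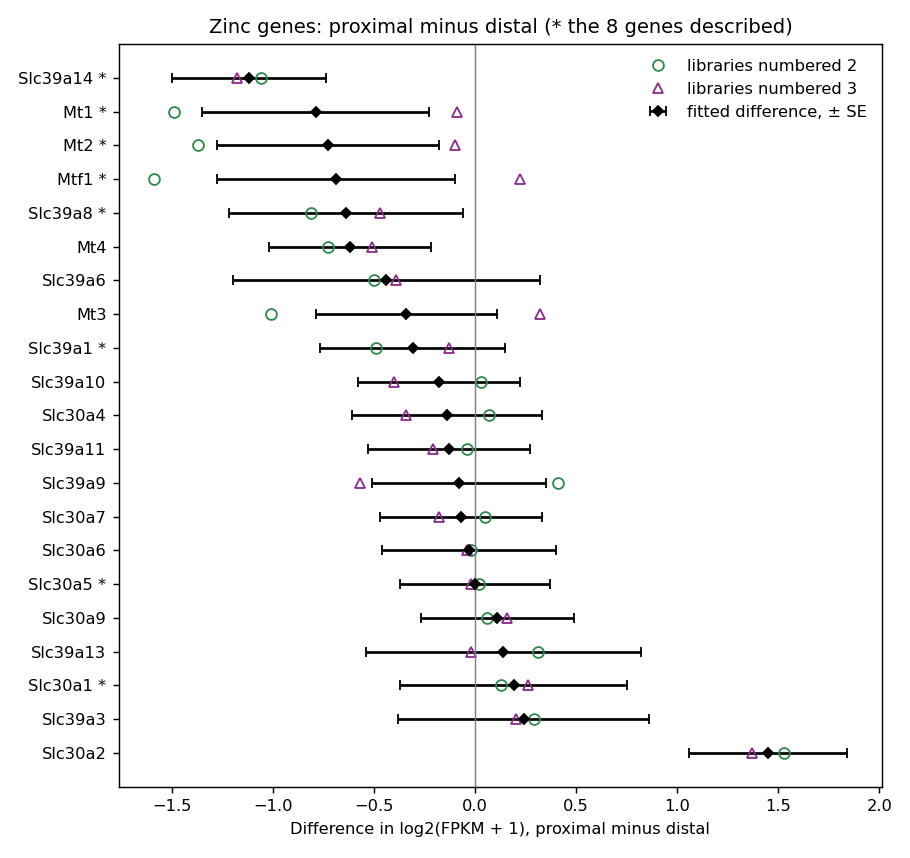
Difference in log2(FPKM + 1), proximal minus distal, for the 21 tested zinc genes, ordered from the most negative at the top. Diamonds with bars are the fitted difference ± SE (n = 2 libraries per region), circles the difference within the libraries numbered 2 and triangles that within those numbered 3. Mt1, Mt2 and Mtf1 have circles at or below -1.37 and triangles between -0.10 and 0.22, while both symbols of Slc39a14 lie near -1.12.

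The rest of the zinc network was what the family lists held outside the 8 genes. The choice of the 8 thus also shaped this rest, and it is no independent set. It comprised 21 genes, of which 13 were expressed highly enough to be tested. Both proximal values lay above both distal values for 1 of them (Slc30a2) and below for 1 (Mt4), 11 overlapped, and limma called 0, with 1 at an unadjusted p under 0.05. Without overlap in either direction stood 21.6% of all tested genes. The median log2 difference of the 13 zinc genes was -0.08, and -0.24 under both quantile normalization and median ratio scaling. Slc30a2 (ZnT2), which fills vesicles with zinc and is known for zinc secretion into milk, stood at 5.70 and 5.49 FPKM in the proximal and 1.33 and 1.52 FPKM in the distal libraries, a log2 difference of 1.45 ± 0.39 (SE). Slc39a6 (ZIP6) stood at 12.5 and 40.9 FPKM in the proximal and 18.2 and 53.7 FPKM in the distal libraries, higher in both libraries numbered 3. Slc39a13 (ZIP13), an importer needed in connective tissue cells of the mouse, went the other way, with 24.1 and 7.89 FPKM in the proximal and 19.3 and 8.0 FPKM in the distal libraries.

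Several of these genes differed by library number, and so did many of all tested genes. Among the 5 tested exporters outside the 8 genes, 1 was higher and 2 were lower in both libraries numbered 3, and among the 6 tested importers 1 was higher and 4 were lower. Among all tested genes 20.3% were higher and 50.3% lower in both libraries numbered 3. These counts are near those shares, so nothing particular to zinc genes is read from them. The median FPKM of tested genes was also lower in the libraries numbered 3. It was 9.92 in proximal 2, 7.43 in proximal 3, 8.92 in distal 2 and 6.81 in distal 3. Of the 8 genes, Slc39a1 and Slc39a8 were higher and Slc30a1 and Slc30a5 lower in both libraries numbered 3. Region and number are crossed, each region having a library of either number.

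By mean level over the 4 libraries, the transporters that took a name were led by Slc39a6 (31.3 FPKM) and Slc39a14 (30.8 FPKM), followed by Slc30a5 (21.3 FPKM), Slc39a13 (14.8 FPKM) and Slc30a9 (12.6 FPKM). Slc39a6 and Slc39a14 changed places between libraries, each being above the other in 2 of 4, so they do not differ in level beyond their spread. Slc30a5 was above Slc39a13 in 4 of 4 libraries and below Slc39a14 in 3 of 4. Slc39a8 (8.54 FPKM) and Slc39a1 (6.30 FPKM) lay in the middle of the order, each above the next gene in 2 of 4 libraries. Slc30a1, with a mean of 3.10 FPKM, was the lowest of the 16 named transporters with a mean above 1 FPKM. Slc39a4, the intestinal importer, reached 1 FPKM in proximal 3 alone (1.24 FPKM), and Slc30a8, the exporter of insulin granules, was listed at 0 in all 4 libraries. Slc39a7 took no name by the rule, since the deposited transcripts over it also span its neighbour H2-Ke6. The one of 3456 bases stood at 81.6 and 67.4 FPKM in the proximal and 79.9 and 59.4 FPKM in the distal libraries. It lay above every named transporter in each library. How much of it came from Slc39a7 is unknown, so the lead among all transporters is uncertain. Another, of 3171 bases, stood at 12.5 FPKM in distal 3 and was listed at 0 in the other libraries.

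**Figure D5:**
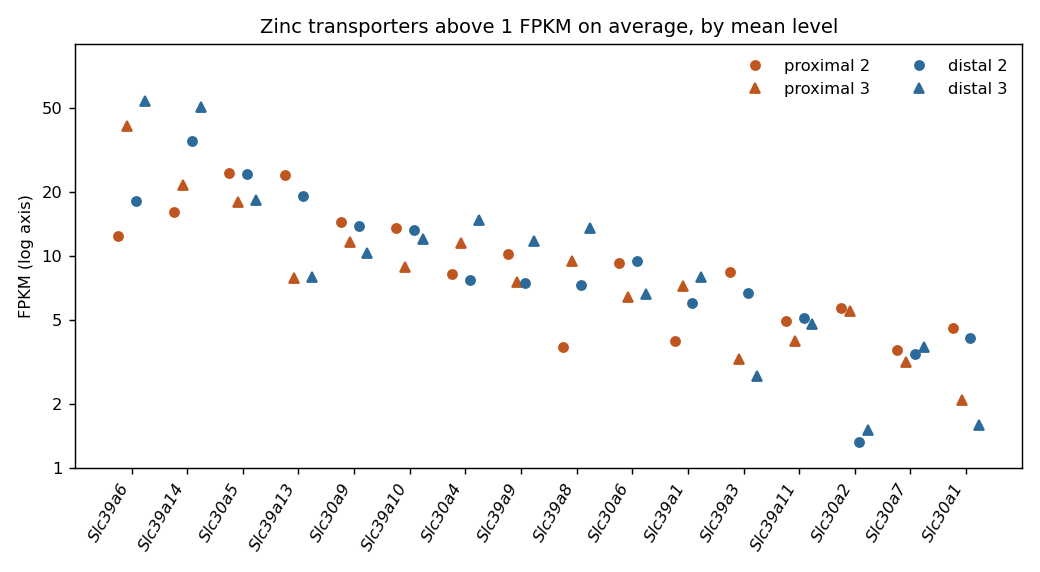
FPKM (log axis) of the 16 named zinc transporters with a mean above 1 FPKM, ordered from the highest to the lowest mean. Points are single libraries, orange for proximal and blue for distal, circles for number 2 and triangles for number 3. Slc39a14 and Slc30a2 separate by colour in opposite directions, and Slc39a6, Slc39a13 and Slc30a1 are among those that separate by shape.

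Among 607 other genes with a mean of at least 100 FPKM, the one whose pattern across the 4 libraries was most like Mt1 was Mt2, with a largest distance of 0.11 on the centred log2 scale. Next came Tagln2 (0.17), an actin-binding protein, Actg1 (0.20), cytoplasmic gamma actin, Gm12715 (0.23) and Ptp4a1 (0.26), a tyrosine phosphatase. The same 4 genes followed Mt1 in likeness to Mt2, at distances of 0.15 to 0.22. Tagln2 stood at 99.9 and 211 FPKM in the proximal and 228 and 237 FPKM in the distal libraries, and Actg1 at 466 and 985 FPKM against 1036 and 1022 FPKM. These genes were picked for this pattern, and likeness over 4 libraries is a description.

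Gene groups linked to metallothionein or transporter control were read beside these values, and limma called 0 genes in any of them. Of all tested genes, 8.67% lay below and 12.9% above without overlap, so that 1 gene of a list of 8 or 9 is near that share. Of 9 tested genes of interleukin 6 and acute phase signalling, 3 had proximal values below distal ones without overlap and 0 above, with a median log2 difference of -0.41. Saa3, an acute phase gene, stood at 6.98 and 7.61 FPKM in the proximal and 40.9 and 81.1 FPKM in the distal libraries. Of the 9 genes, 8 had a negative log2 difference and 1, Socs3, a positive one. Socs3 stood at 702 and 221 FPKM in the proximal and 544 and 170.2 FPKM in the distal libraries. The part of this signalling in the Slc39a14 level was not tested. Il6 itself stood at 220.3 and 442 FPKM in the proximal and 345 and 419 FPKM in the distal libraries. Of 8 glucocorticoid-responsive genes 1 lay above and 0 below without overlap (median 0.35). The list summed to 1885 and 2860 FPKM in proximal and to 2031 and 1937 FPKM in distal libraries, lowest in proximal 2 but close to both distal sums. The low sum of proximal 2 came from Errfi1 (218 and 1430 FPKM in proximal, 473 and 1092 FPKM in distal libraries). Errfi1 was the only gene of the list that was lowest in proximal 2. The genes of the list did not move together. Tsc22d3 (226 and 76.9 FPKM in proximal, 164 and 45.3 FPKM in distal libraries) was highest in proximal 2. So was Zbtb16 (9.65 and 2.73 FPKM against 2.93 and 1.31 FPKM), while Sgk1 (104 and 416 FPKM against 78.4 and 162 FPKM) was highest in proximal 3. Of 6 tested metal and oxidant response genes 5 were higher in both libraries numbered 3, against 20.3% of all tested genes, and 1, Nqo1, lay above in proximal stroma without overlap (16.0 and 10.1 against 6.44 and 3.68 FPKM). Hmox1, which oxidants and metals induce, stood at 43.3 and 793 FPKM in the proximal and 39.3 and 498 FPKM in the distal libraries, a split by number. Txnrd1 (37.9 and 261 FPKM against 76.4 and 266 FPKM) was also higher in both libraries numbered 3. Srxn1, at 35.2 and 92.6 FPKM in the proximal and 82.5 and 91.5 FPKM in the distal libraries, was low in proximal 2, as Mt1 was. A link of this list to Mt1 was not tested. Of 9 tested copper genes 1 lay above and 1 below without overlap (median 0.29), and the 1 below was the copper pump Atp7a at 17.3 and 15.7 FPKM in proximal and 23.7 and 32.8 FPKM in distal libraries. Of 8 tested iron genes all overlapped (median -0.02), with the iron importer Slc11a2 at 10.6 and 28.9 FPKM in the proximal and 17.1 and 48.1 FPKM in the distal libraries. Of the 8 early and heat shock genes 4 lay above and 0 below without overlap (median 0.80).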

How the data were processed

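RNA was measured by sequencing in 2 proximal and 2 distal libraries. Per the labels' protocols, cDNA was made with the SMART-Seq v4 kit from random and oligo-dT primers, amplified and sequenced on an Illumina HiSeq. The kit does not mark strand. The submitters' processing notes name bcl2fastq 1.8.3, TopHat2 0.6, Cufflinks 0.0.6 and mm10. The authors deposited FPKM per transcript with lower and upper bounds, and a coverage signal per transcript, per the file headers. Depth is unknown, as no source used here gives the total of mapped fragments. Coverage divided by FPKM rises with depth where reads are of 1 length, and its medians were 5.22 and 5.38 (proximal) and 5.68 and 6.34 (distal). For members' transcripts above 0 the bounds had a half-width of 0.698% to 34.1% of the value.

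Transcripts got gene names by their position in GENCODE M21 (same assembly as mm10). A name was taken where span overlap times length similarity was at least 0.8 and every other gene scored below 0.8 times that. Failing that, both ends had to lie within 100 bases of exons of a single gene, or similarity had to reach 0.5 with any other gene below 0.25. This named 54845 of 63241 transcripts in 25562 genes, 7 of which were left out at the same minimum for a failed or capped estimate, with 317 unnamed transcripts. All 8 members were named (23 transcripts) and all passed the minimum of 1 FPKM in at least 2 libraries, as did 11213 genes. Values were compared on the log2(FPKM + 1) scale, on which low genes show too small a fold change, with limma 3.58.1 in R 4.3.3 (region as the only term, mean trend, two-sided, Benjamini-Hochberg over all tested genes, threshold 0.05). The fit was also run on simulated data, whose outcome is not given here. With 2 libraries per region, 0 called genes do not show that the regions are alike. Python 3.11.15, pandas 2.3.3, biopython 1.88 and matplotlib 3.10.9 were used for the rest.

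The members and gene lists were chosen with earlier results of these data known. The text names all members, up to 3 genes per list with the largest differences, and the 5 genes most like Mt1 or Mt2 (smallest largest distance of centred log2 values). Other names (Il6, Socs3, Hmox1, Errfi1, Slc30a6, Slc39a4, Slc30a8, Slc39a13, Slc39a7, Sbp, Spink1, Cd3e, Cd24a, Itga6, Ubb and Pdgfra) were chosen after their values were seen. Promoter windows come from RefSeq (GRCm38.p6), which matched 7 members. Alternatives covered the pseudocount, the minimum, the scaling, the transcript used, the block and each library left out.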

Additional observations from a re-analysis of the deposited data

How the results depend on the processing

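The count of 0 called genes held under 10 of 13 alternatives, among them pseudocounts of 0.1 and 10, both minimums and both scalings. With a replicate block on the library number 450 genes (4.01%) passed (limma). Slc39a14 was among them (limma with the block, adjusted p = 0.0185), alone of the 8, as were Slc30a2 (0.0127), Saa3 (0.00314) and Nqo1 (0.0178). Cell type markers passed the same limma fit with the block, namely luminal Msmb (adjusted p = 0.0105) and epithelial Cdh1 (0.0113). So did the pericyte markers Cspg4 (0.0291) and Abcc9 (0.0338) and the smooth muscle marker Actg2 (0.0454). Msmb, Cdh1 and Abcc9 were higher and Cspg4 and Actg2 lower in proximal stroma. The part of cell composition in the other calls was not tested. The members and gene lists were chosen with earlier results of these data known, so these values are a description and no test of these genes. The labels leave the meaning of the numbers unstated, and there are 2 pairs, although the difference of number 3 minus number 2 correlated at 0.815 between regions across genes. With 1 library left out, where region is mixed with number, 0 to 40 genes passed: 40 without distal 2, 26 without distal 3 and 0 without either proximal library. The median log2 difference of the 8 genes (-0.67) was -0.28 with a pseudocount of 10, which shrinks low genes by construction, and -1.27 to -0.11 with 1 library left out. The count of other zinc genes without overlap (2) was 4 under quantile normalization, 5 under median ratio scaling and 6 to 8 with 1 library left out, where 2 libraries face 1 and overlap is rarer. The share of all tested genes without overlap was not computed under these settings. Nothing about zinc genes is therefore read from the change in count. Quantile normalization and median ratio scaling moved the median over all genes from 0.09 to -0.03 and -0.05. Slc39a14, Mt1, Mt2, Mtf1 and Slc39a8 had a negative difference under all 13 alternatives, but without proximal 2 it was near 0 for Mt1 (-0.15), Mt2 (-0.07), Mtf1 (-0.01) and Slc39a8 (-0.06). Slc39a8 differs from Mt1 and Mt2 in that its difference was negative within both numbers (-0.81 in number 2 and -0.47 in number 3). Slc39a1 had a negative difference under 12 of 13, its exception being the fit without proximal 2 (0.05). Slc30a1 stayed higher under 9 of 12 and the near-zero Slc30a5 kept its sign under 7 of 13. Mtf1 without its short transcript, an alternative chosen after seeing the data, had a log2 difference of 0.00. The unknown depth limits the low genes most.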
